A study of Mus musculus with 6 samples.

Results

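Expression of 10 genes for gut effector and regulatory cytokines and their receptors was examined in B cells sorted from mouse colons after treatment with lenvatinib or with DMSO. The genes were taken by symbol as a fixed list, and all 10 of them were found among the 20591 gene symbols of the expression table. They are the interleukin gene Il10 with its receptor genes Il10ra and Il10rb, the effector cytokine genes Il22, Il17a, Il6 and Csf2, and the subunit genes Ebi3, Il12a and Il12b. Each group held 3 RNA sequencing libraries, numbered as biological replicates. Lenvatinib blocks several receptor tyrosine kinases, among them the receptors for VEGF and FGF, and the control mice received the solvent DMSO. The series title sets the work in colitis and in the trafficking of B cells to the intestine through the endothelial molecule MAdCAM-1. Strain, age, dose and the inflammatory state of the mice are not given in the sources used here, nor whether the replicates of a group were different animals. All p-values given here rest on the spread among the 6 libraries, and that spread may be technical.

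Interleukin 10 restrains inflammation in the gut and signals through a receptor built of a specific chain, Il10ra, and a shared chain, Il10rb, which relay to JAK1, TYK2 and STAT3. B cells that secrete interleukin 10 are known as regulatory B cells. Interleukin 22 and interleukin 17A are made mainly by T cells and innate lymphoid cells and act on the epithelium. Interleukin 6 and GM-CSF, the product of Csf2, activate lymphocytes and myeloid cells. The interleukin 12 family is made of paired chains. Il12a and Il12b form interleukin 12, Il23a and Il12b form interleukin 23, Il27 and Ebi3 form interleukin 27, and Il12a and Ebi3 form interleukin 35.

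In the lenvatinib libraries Il22, Il6 and Csf2 were higher, Il10ra was lower, and Il10, Il10rb, Ebi3 and Il12a did not pass the test. Il12b and Il17a were too low to be tested. Levels are FPKM, reads relative to gene length and library total, scaled between libraries, and values after ± are SDs over n = 3 libraries. Genes were tested with limma on log2(scaled FPKM + 1) when at least 3 of the 6 libraries reached 1, which left 9937 genes, and a gene was called at an adjusted p below 0.05. Of the 8 tested cytokine and receptor genes 3 were higher (37.5 percent) and 1 was lower (12.5 percent), against 10.4 percent higher, 8.21 percent lower and 18.7 percent in either direction among all tested genes. Il6 and Csf2 reached 1 in lenvatinib libraries alone, so a difference was close to a condition of their being tested. Among the 6 genes with at least 1 in every DMSO library, 1 was higher and 1 lower. The libraries of the groups did not overlap for 4 of the 8, as for 37.1 percent of all tested genes. The median log2 change was 0.14 over the 8 genes and 0.0069 over all tested genes.

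The FPKM steps gave back whole reads, so the distance of each gene from the detection limit can be stated. The library totals behind the FPKM lay between 26635279 and 31655500 reads. A gene was taken as at the limit in a library with 3 or fewer reads, and as near it when its mean level in a group was below 1. By these definitions 6 genes were clear of the limit in both groups, namely Il10ra, Il10rb, Il12a, Ebi3, Il10 and Il22. Il6 and Csf2 were near it in the DMSO group only. Il12b was near it in both groups, and Il17a was at it in 5 of 6 libraries. Differences in the number of cells of a type and in RNA per cell cannot be told apart in such bulk libraries.

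**Figure D1:**
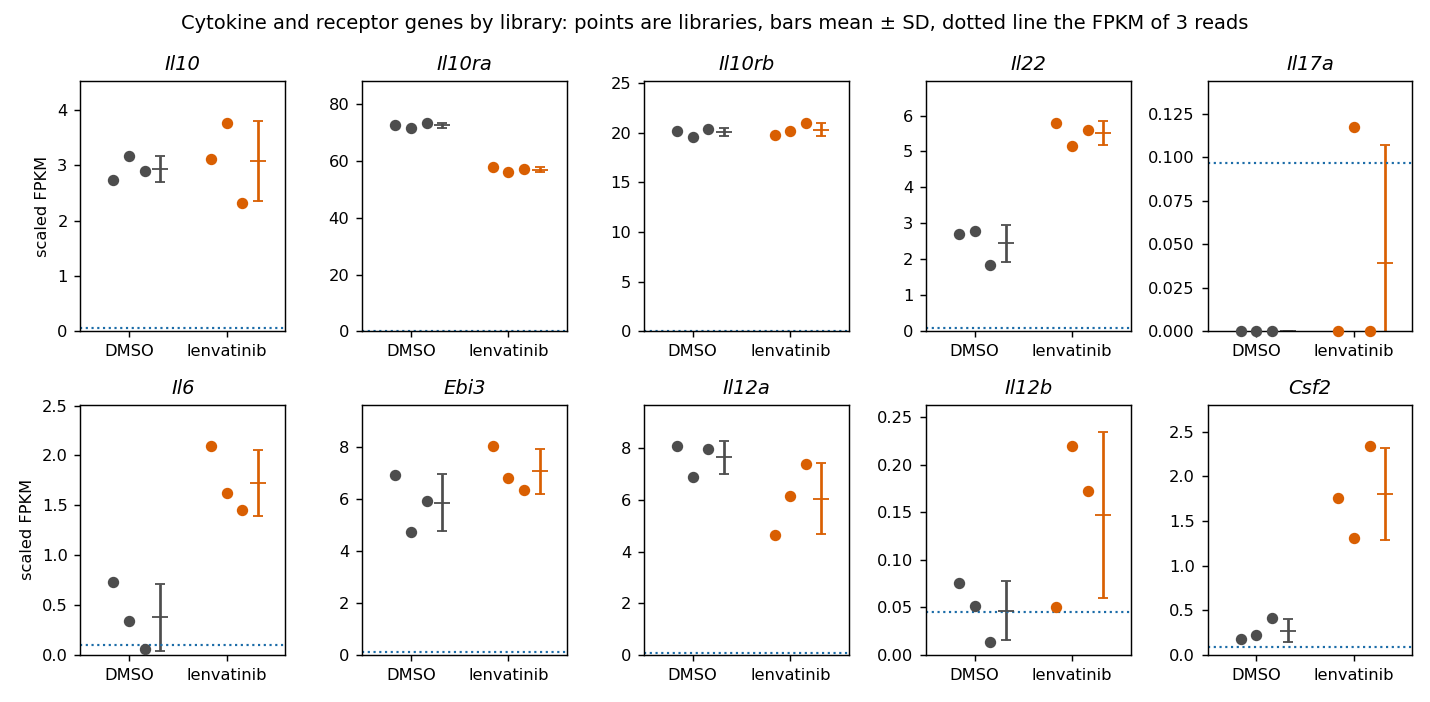
Scaled FPKM (vertical axes, linear, each starting at 0) of the 10 genes in 3 DMSO and 3 lenvatinib libraries; points are libraries, bars are mean ± SD and the dotted line is the level that 3 reads are worth. Il22, Il6 and Csf2 lie higher and Il10ra lower in every lenvatinib library. Il12b has its highest points, 0.220 and 0.173, in lenvatinib replicates 2 and 3, above its dotted line at 0.0453. Il17a is at 0 except in lenvatinib replicate 2, where it is at 0.117 beside a dotted line at 0.0970.

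Il10ra, which binds interleukin 10, was the most abundant gene of the set and the only one called lower. Its scaled FPKM was 72.6, 71.7 and 73.5 in DMSO libraries and 57.8, 56.2 and 57.1 in lenvatinib libraries. The groups were far apart beside the narrow spread within each, from 5531 to 7797 reads per library. On the log2 scale the change was −0.34 (SE 0.03, 95% interval −0.42 to −0.27, limma adjusted p = 0.000169), a level 0.785 times that of the DMSO group. It remained called in all 18 alternative settings, with log2 changes between −0.37 and −0.33.

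Il10rb, the chain that the receptors for interleukin 10 and interleukin 22 share, stood at 20.2, 19.6 and 20.3 in DMSO libraries and at 19.7, 20.1 and 21.0 in lenvatinib libraries. The groups overlapped, with a log2 change of 0.02 (SE 0.05, 95% interval −0.10 to 0.13, limma adjusted p = 0.856). Per length, Il10ra was 3.63 times as abundant as Il10rb in the DMSO group and 2.81 times in the lenvatinib group. On the log2 scale with a pseudocount of 0.1, this ratio was 1.84, 1.87 and 1.85 in DMSO libraries and 1.55, 1.48 and 1.44 in lenvatinib libraries. The ratio was lower in 3 of 3 lenvatinib libraries than in any DMSO library, a difference of −0.37. Its exact two-sided permutation p was 0.1, the smallest that 3 against 3 allows (0.25 after adjustment over the 5 chain ratios compared).

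Il10 itself was expressed at a low level that did not differ beyond the spread of libraries. Its scaled FPKM was 2.73, 3.18 and 2.90 in DMSO libraries and 3.11, 3.77 and 2.33 in lenvatinib libraries, from between 135 and 230 reads. The highest and the lowest of the 6 values were both in the lenvatinib group. Its log2 change was 0.04 (SE 0.14, limma adjusted p = 0.887), and its 95% interval from −0.27 to 0.34 bounds what these libraries can show. Its sign depended on the scaling and on single libraries, with −0.0079 after quantile normalization, −0.0024 without DMSO replicate 1 and −0.087 without lenvatinib replicate 2.

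Il22 rose from 2.70, 2.78 and 1.86 in DMSO libraries to 5.80, 5.15 and 5.60 in lenvatinib libraries. It encodes interleukin 22, which drives antimicrobial and repair programmes of the epithelium. The groups did not overlap and rested on 78 to 121 reads against 210 to 259 reads per library. This gave a log2 change of 0.93 (SE 0.12, 95% interval 0.65 to 1.21, limma adjusted p = 0.000812), a ratio of mean levels of 2.26. In the annotation at hand a close copy, Iltifb, lies next to Il22, with Ifng beyond it. Iltifb has no row under that symbol in the expression table and is not analysed here. Reads of the copies could be shared, so the level of Il22 is uncertain to that extent.

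Csf2, the gene of GM-CSF, rose from near the detection limit. Its scaled FPKM was 0.177, 0.226 and 0.416 in DMSO libraries, from 6, 9 and 16 reads. In lenvatinib libraries it was 1.76, 1.31 and 2.34, from 72, 49 and 83 reads. Every lenvatinib library lay above every DMSO library, and the DMSO values corresponded to few reads, with 1 read worth between 0.0245 and 0.0295. The log2 change was 1.13 (SE 0.16, 95% interval 0.76 to 1.5, limma adjusted p = 0.00145), and the ratio of mean levels was 6.61. The pseudocount of 1 holds the former down: the log2 change was 2.37 with a pseudocount of 0.1 and 2.70 in limma-voom on the recovered reads.

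Il6 rose from 0.730, 0.338 and 0.0584 in DMSO libraries to 2.09, 1.63 and 1.46 in lenvatinib libraries. These levels came from 22, 12 and 2 reads against 76, 54 and 46 reads. The DMSO libraries differed widely among themselves, with replicate 3 at the detection limit, yet all lay below the lenvatinib libraries. The log2 change was 1.01 (SE 0.19, 95% interval 0.58 to 1.44, limma adjusted p = 0.00615), and the ratio of mean levels was 4.59. The log2 change was 2.22 with a pseudocount of 0.1 and 2.73 in limma-voom.

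The regions upstream of the Il6 and Csf2 starts are shown because both genes were near the detection limit in the DMSO group and rose. They are the 250 bases before each gene start in RefSeq (build GRCm38.p6, which is not the build of the expression table), on the coding strand, at chr5:30012864-30013113 (+) and chr11:54249900-54250149 (−). Capitals mark matches of 4 motifs searched on both strands: TGANTCA (AP-1), GGGANNTTC (NF-kB), TTCNNNGAA (STAT) and TGACGTCA (CRE).
Il6: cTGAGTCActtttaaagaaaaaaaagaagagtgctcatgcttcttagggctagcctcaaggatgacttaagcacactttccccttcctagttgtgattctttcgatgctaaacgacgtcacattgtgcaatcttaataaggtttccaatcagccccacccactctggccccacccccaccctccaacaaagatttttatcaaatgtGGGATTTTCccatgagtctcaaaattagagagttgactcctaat
Csf2: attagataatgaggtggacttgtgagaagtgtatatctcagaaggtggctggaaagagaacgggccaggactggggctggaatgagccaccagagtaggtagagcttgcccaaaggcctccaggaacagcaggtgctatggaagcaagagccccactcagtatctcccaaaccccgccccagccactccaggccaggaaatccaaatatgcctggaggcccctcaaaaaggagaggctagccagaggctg
The Il6 window held 1 AP-1 match, TGAGTCA, from 249 to 243 bases before the start and 1 NF-kB match, GGGATTTTC, from 44 to 36 bases before it. The 2 matches did not overlap. The Csf2 window held no match of these letters. Of 32851 RefSeq windows of this length, 6.75 percent held the AP-1 motif, 3.23 percent the NF-kB motif, 7.02 percent the STAT motif and 1.55 percent the CRE motif. Windows were at hand for 7 of the 10 genes, and the only other match was an AP-1 motif upstream of Il17a.

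**Figure D2:**
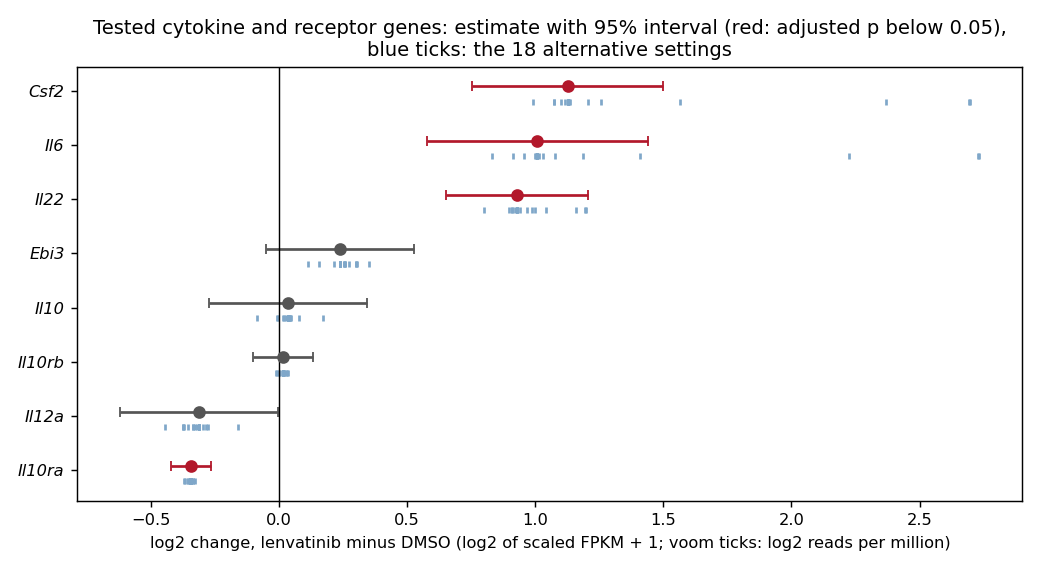
Log2 change, lenvatinib minus DMSO (horizontal axis), of the 8 tested genes with its 95% interval (points and bars, red where the adjusted p was below 0.05), and the same change in 18 alternative settings (blue ticks). Csf2, Il6 and Il22 lie to the right of 0 and Il10ra to the left in every setting, and the ticks of Csf2 and Il6 reach up to 2.70 and 2.73 where low values were compressed less.

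Of the chains of the interleukin 12 family Il12a and Ebi3 were tested and did not pass, and Il12b, Il23a and Il27 were too low to be tested. Il12a, which encodes the p35 chain, stood at 8.07, 6.90 and 7.97 in DMSO libraries and at 4.63, 6.13 and 7.39 in lenvatinib libraries. The lenvatinib values were spread widely, and replicate 3 lay within the DMSO range. Its log2 change was −0.31 (SE 0.14, 95% interval −0.62 to −0.003, limma adjusted p = 0.151). Without lenvatinib replicate 3 it was −0.45 and passed (limma adjusted p = 0.0429), and without lenvatinib replicate 1 it was −0.16 (limma adjusted p = 0.379).

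Ebi3, which pairs with Il27 or Il12a, stood at 6.95, 4.73 and 5.95 in DMSO libraries and at 8.04, 6.84 and 6.36 in lenvatinib libraries. The ranges overlapped, and the log2 change was 0.24 (SE 0.13, 95% interval −0.05 to 0.53, limma adjusted p = 0.235). It was 0.11 without DMSO replicate 2 and 0.16 without lenvatinib replicate 1. On the log2 scale with a pseudocount of 0.1, the ratio of Il12a to Ebi3 was 0.39 ± 0.16 in DMSO and −0.24 ± 0.50 in lenvatinib libraries (exact two-sided permutation p = 0.2). In the DMSO group Il12a ranked above Ebi3 and in the lenvatinib group below it, with overlapping ranges in both.

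Il12b, the p40 chain that interleukins 12 and 23 share, was close to the detection limit. It had 5, 4 and 1 reads in DMSO libraries and 4, 16 and 12 reads in lenvatinib libraries, or 0.0756, 0.0514 and 0.0133 against 0.0501, 0.220 and 0.173 scaled FPKM. The ranges overlapped, since lenvatinib replicate 1 had no more reads than DMSO replicate 2. The group totals were 10 reads (95% exact Poisson interval 4.8 to 18.4) and 32 reads (21.9 to 45.2), intervals that cover counting error only. Over libraries the exact two-sided permutation p was 0.3, and limma-voom on recovered reads gave a log2 change of 1.51 (SE 1.21, adjusted p = 0.466). The Il12b level was 0.00611 times that of Il12a in the DMSO group and 0.0244 times in the lenvatinib group. With a pseudocount of 0.1 this ratio differed by 1.06 on the log2 scale, without overlap (exact two-sided permutation p = 0.1, and 0.25 after adjustment over the 5 ratios). The size followed the pseudocount, which exceeds the mean Il12b level of 0.0468 in the DMSO group: it was 1.82 with 0.01 and 0.57 with 0.5.

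The other partner chains also had few reads. Il23a had 0, 11 and 12 reads in DMSO libraries and 4, 4 and 14 reads in lenvatinib libraries. Il27 had 0, 1 and 4 reads in DMSO libraries and 0, 4 and 0 reads in lenvatinib libraries. The groups overlapped for both, and the exact two-sided permutation p was 0.6 for the Il23a to Il12b and for the Il27 to Ebi3 ratio. Il12a and Ebi3 were each present at several FPKM in libraries where the partners Il12b, Il23a and Il27 had between 0 and 16 reads.

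Il17a, the T helper 17 cytokine, was listed at 0 in all 3 DMSO libraries and in lenvatinib replicates 1 and 3. It had 4 reads in lenvatinib replicate 2, or 0.117 scaled FPKM. A library with no read allows a level of up to between 0.0804 and 0.0970, the worth of 3 reads, so a smaller difference was not detectable at this depth. Its neighbour and relative Il17f, named after its values were seen, had 1, 7 and 5 reads in DMSO libraries and 0, 7 and 12 in lenvatinib libraries.

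Levels spanned a wide range across the set. In the DMSO group the order per length was Il10ra, Il10rb, Il12a, Ebi3, Il10, Il22, Il6, Csf2, Il12b and Il17a. The ranges of neighbours overlapped for Il12a with Ebi3, Il10 with Il22 and Il6 with Csf2. In the lenvatinib group Il22 stood above Il10 with separate ranges, 5.15 to 5.80 against 2.33 to 3.77, and Ebi3 overlapped Il12a, Il12a overlapped Il22, Il10 overlapped Csf2, Csf2 overlapped Il6 and Il12b overlapped Il17a. Il10ra was more abundant than 96.2 percent of the genes with any read in the DMSO group, and Il10 more than 60.1 percent.

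The genes with the most similar profile over the 6 libraries were found by the root mean square difference of log2 values, each centred on its own mean. Those nearest to Il10ra were Myc, Crybg1 and Sec24a, with differences of 0.0127, 0.0142 and 0.0163. Nearest to Il22 were the lipid droplet gene Plin2, Xlr3b and the sulfatase gene Sulf2 (0.0737, 0.0887 and 0.103), of which Xlr3b has close copies that reads may share. Nearest to Csf2 were the lymphocyte receptor genes Tnfrsf18, Pvrig and Cd27 (0.123, 0.128 and 0.142). Nearest to Il6 were the protease inhibitor gene Slpi, the adenosine receptor gene Adora2a and Il22 (0.0877, 0.150 and 0.155). Nearest to Il10 were Slc39a3, Pla2g12a and Rfng, to Il10rb Mak16, Sf1 and Cdc42, to Ebi3 Ugdh, Dvl2 and Mrps33, and to Il12a Tmem94, Cdin1 and Klhl14. With so few libraries in separate groups these distances describe the profiles only.

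Genes that relay interleukin 10 and interleukin 6 signals moved in both directions. Of 10 tested genes 2 rose and 3 fell, with a median log2 change of −0.04. Stat3, the transcription factor of both cytokines, rose from 155.8 ± 3.51 to 179.7 ± 3.51 (log2 change 0.20, limma adjusted p = 0.0014), and Nfil3, a factor that interleukin 10 induces in macrophages, from 11.6 ± 0.62 to 14.9 ± 0.0823. The phosphatase gene Ptpn6 fell from 123.4 ± 3.38 to 104.0 ± 1.92 (log2 change −0.24, limma adjusted p = 0.000919). Jak1, the kinase of both receptors, changed by −0.12 and lost its call without any 1 of the 3 DMSO replicates or lenvatinib replicate 1, with the replicate block and without trend and robust moderation (limma adjusted p between 0.0504 and 0.135). The feedback inhibitor Socs3 had 51.0 ± 0.824 and 50.1 ± 2.32. Jak1 and Socs3 were named after their values were seen.

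Receptors of interleukin 6 and its relatives did not pass. In the gp130 list 0 of 7 tested genes were called by limma, with 2 at an unadjusted p below 0.05. Of these Lifr was called higher in limma-voom and in limma with neither trend nor robust moderation (adjusted p = 0.0462). Lifr, a receptor chain for LIF, had 1.83 ± 0.296 and 2.63 ± 0.219 (limma adjusted p = 0.0606), and the shared chain Il6st had 23.95 ± 1.12 and 21.9 ± 0.652. Il6ra, named after its values were seen, had 2.81 ± 0.426 and 2.58 ± 0.131. In the list of GM-CSF relatives and receptors limma called 0 of 7, with 1, Csf1, at an unadjusted p below 0.05. Csf1 was called lower in limma-voom and in limma after quantile normalization (adjusted p = 0.0435) or with neither trend nor robust moderation (adjusted p = 0.0457). Csf1, the macrophage growth factor, had 1.34 ± 0.263 and 0.775 ± 0.143 (limma adjusted p = 0.0772), and the GM-CSF receptor chains Csf2ra and Csf2rb had 2.05 ± 0.154 and 2.20 ± 0.191, and 5.34 ± 0.488 and 6.08 ± 0.600.

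Among the partners and receptors of the interleukin 12 family 1 of 4 tested genes was called. Il12rb2, the inducible chain of the interleukin 12 receptor, rose from 0.416 ± 0.172 to 1.97 ± 0.294 (log2 change 1.07, limma adjusted p = 0.000919), and it too reached 1 in lenvatinib libraries alone. Its partner Il12rb1, untested and named after its values were seen, had 0.739 ± 0.0568 and 1.11 ± 0.251. In the interleukin 17 list limma called 0 of 2 tested genes, with 1, Il17ra, at an unadjusted p below 0.05. Il17ra was called lower in limma-voom and in limma after scaling by summed FPKM (adjusted p = 0.0494). Il17ra had 34.3 ± 1.16 and 31.2 ± 1.15 (limma adjusted p = 0.0868). Only 1 further gene of the interleukin 10 family, the interferon lambda receptor gene Ifnlr1, was tested, at 0.945 ± 0.235 and 0.872 ± 0.284. It did not pass in limma at an unadjusted p below 0.05 or in limma-voom, which leaves that list with 0 calls in each.

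Of the other T helper cytokine genes 1 of 3 tested was called. Ifng, which lies in the same gene cluster as Il22, rose from 1.37 ± 0.123 to 7.34 ± 0.775 (log2 change 1.82, limma adjusted p = 6.94e-06), while Tnf had 10.1 ± 1.06 and 10.5 ± 1.78. Il4, Il13 and Il21, untested and named after their values were seen, had at most 7 reads in either group as a sum over 3 libraries.

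Of 15 genes linked to regulatory B cells 3 rose and 1 fell, with a median log2 change of 0.05. The inhibitory receptor gene Tigit, which T and natural killer cells also express, rose from 2.98 ± 0.801 to 15.2 ± 0.660 (log2 change 2.05, limma adjusted p = 1.81e-05). Nt5e, the ectoenzyme CD73 that makes adenosine, rose from 6.98 ± 0.141 to 13.9 ± 0.608, and the tetraspanin gene Cd9 from 13.3 ± 0.464 to 17.3 ± 1.30. Irf4, a factor required for plasma cells and for interleukin 10 in B cells, fell from 136.5 ± 1.80 to 104.2 ± 0.537. Of 3 tested epithelial genes that interleukin 22 induces, 2 rose and Saa3 was not called (7.10 ± 0.906 and 7.86 ± 0.575). Colon epithelial markers also rose in 9 of 9 tested cases, 5 of which reached 1 in lenvatinib libraries alone. Their summed level was 4.63 times that of the DMSO group. Whether the 2 rises reflect interleukin 22 or more epithelial RNA was not tested. The antimicrobial lectin gene Reg3b rose from 1.22 ± 0.282 to 9.08 ± 0.965 (limma adjusted p = 6.64e-06), and Lcn2, which sequesters bacterial iron carriers, from 5.38 ± 0.194 to 7.38 ± 1.07. The call of Lcn2 was lost in limma-voom (adjusted p = 0.181), with no filter on low values (limma adjusted p = 0.0868) and when any 1 of 5 libraries was left out (limma adjusted p between 0.0589 and 0.0955).

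**Figure D3:**
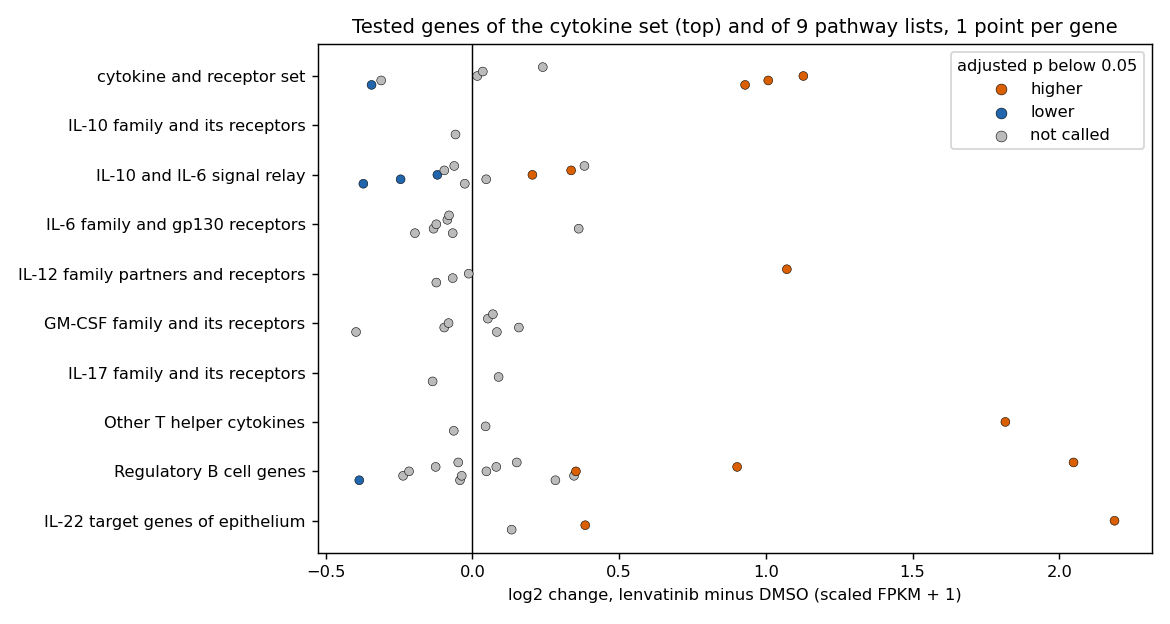
Log2 change, lenvatinib minus DMSO (horizontal axis, log2 of scaled FPKM + 1), of each tested gene of the cytokine and receptor set and of 9 lists of related genes; orange points were higher, blue points lower and grey points not called. Orange points past 1 are Il6 and Csf2 in the cytokine set, Il12rb2, Ifng, Tigit and Reg3b, while most genes of the receptor lists lie near 0.

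The B cell label held, and the same libraries differed in markers of other cells. Cd79a, the signalling chain of the B cell receptor, stood at 1035.4 ± 21.6 and 802.4 ± 20.9. Of 15 B cell identity genes 13 fell and 2 were not called, with 10 of the 13 called in every setting and Ebf1, Fcer2a and Cd79b in some only. Their summed scaled FPKM was 3494 to 3529 in DMSO and 2948 to 2999 in lenvatinib libraries, 0.845 times as high. Without Cd79a, the most abundant of these genes, the sum was 0.875 times as high. The fall of the B cell identity genes stood beside that of Il10ra, whose level was 0.785 times that of the DMSO group. T cell markers rose in 8 of 11 tested cases, 6 of them in every setting (not Lat and Cd28). The sums of that list were 51.8 to 56.3 and 151.0 to 154.2. Its tested markers Cd4 (1.25 and 1.27), Cd8b1 (1.76 and 1.39) and Cd5 (1.22 and 1.33), named after their values were seen, were not called. Natural killer and cytotoxic markers rose in 7 of 8, with Klrb1c tested through lenvatinib libraries alone and Prf1 losing its call in 11 of 18 settings, and with sums of 22.2 to 23.7 and 100.5 to 107.8. Of the markers of T helper 17 and group 3 innate lymphoid cells, the usual sources of interleukin 22, 5 of 8 rose, 3 of them in every setting (not Il1r1 and Il7r), with sums of 133.8 to 138.6 and 164.6 to 167.4. Among them Kit, the receptor for stem cell factor, rose from 1.75 ± 0.668 to 8.33 ± 0.269.

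The summed levels of T cell and natural killer markers were 2.84 and 4.50 times those of the DMSO group, beside 2.26 times for Il22, 4.59 times for Il6 and 6.61 times for Csf2. Without the most abundant gene of each list, Lck and Klrd1, the sums were 3.87 and 4.10 times those of the DMSO group. Colon epithelial markers rose in 9 of 9 tested cases, 5 of which reached 1 in lenvatinib libraries alone, with sums of 14.7 to 16.0 and 68.4 to 74.1. For Il6, which stromal and myeloid cells also make, the lists of fibroblasts and of macrophages and dendritic cells were read. The fibroblast and smooth muscle list summed to 2.42 to 3.55 and 4.28 to 4.85. Without Acta2, its 1 tested gene, that sum was 1.59 to 2.94 and 2.25 to 2.97, ranges that overlapped. Acta2 reached 1 in 3 libraries through the lenvatinib group alone. It rose but was not called without DMSO replicate 3 or lenvatinib replicate 2 or with no filter on low values (limma adjusted p between 0.0531 and 0.0628). Of 11 tested markers of macrophages and dendritic cells 2 rose (Lyz2 not in 9 of 18 settings) and 1 fell, with sums of 717.3 to 724.8 and 612.7 to 623.7. Most of these sums came from Ccr7, which B cells express too, and without it they were 64.3 to 67.2 and 75.6 to 85.1. The single tested endothelial marker, Pecam1, fell and made up nearly the whole endothelial sum, which was 0.783 times that of the DMSO group. Without Pecam1 that sum was 0.418 to 0.658 and 0.456 to 1.07. Of 2 tested mast cell markers Kit rose, and it carried a sum 2.66 times that of the DMSO group. Without Kit that sum was 1.17 to 2.40 and 0.610 to 1.99, and Mcpt1, Mcpt4 and Cma1 were at 0 in all lenvatinib libraries. Of 3 neutrophil markers 2 rose, 0 of which were called by limma with no filter on low values (adjusted p 0.0654 and 0.0712), with a sum 2.16 times as high. Of 7 plasma cell markers 1 rose and 1 fell, with a sum 0.941 times as high. No marker of these lists with a row in the expression table was at 0 in every library. The listed markers Trac, Camp, Tpsb2, Ms4a2 and Fcer1a had no row in it. The part of the marker lists in the differences of Il22, Il6, Csf2 and Il10ra was not tested.

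**Figure D4:**
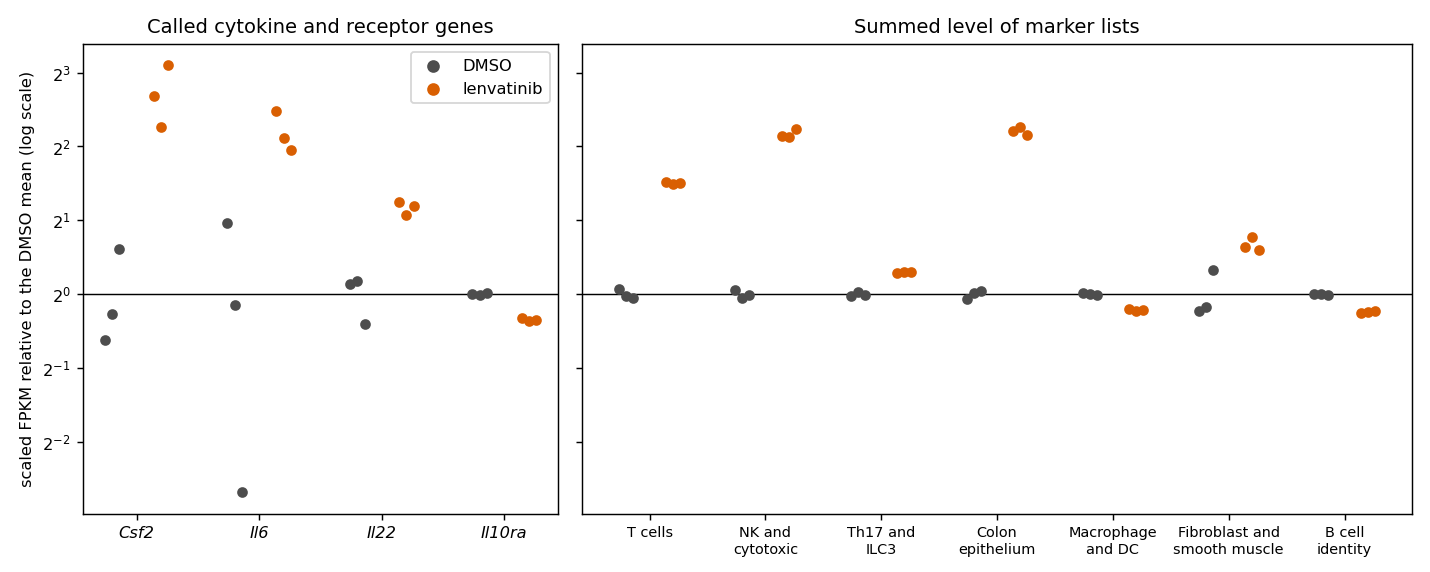
Level of the 4 called genes (left) and summed level of 7 marker lists (right) in each library, divided by the DMSO mean (vertical axis, log scale); points are libraries. Csf2, Il6, Il22 and the T cell, natural killer and epithelial sums lie higher in the lenvatinib libraries, and Il10ra and the B cell identity sum lie lower. The 4 genes are shown because they differed between the groups, so a direction shared with a marker list does not link them to it.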

How the data were processed

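RNA was measured in 3 DMSO and 3 lenvatinib libraries of sorted colonic B cells. Per the labels' protocols, RNA was extracted with TRIzol and libraries were prepared with the VAHTS Universal V10 kit for RNA-seq. HTSeq and the genome build GRCm39 are named in the submitters' processing notes. The aligner, annotation and strand setting are not given in the sources used here. FPKM per gene, computed by the authors, was deposited in 6 columns, and each sample's description names its column. Libraries of a group differed beyond counting noise (chi-square per degree of freedom between 6.88 and 9.69 over 6 pairs), so none was treated as a duplicate deposit.

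These values were scaled by median-of-ratios factors (0.992 to 1.009, from 9163 genes). Genes that reached a scaled value of 1 in 3 or more libraries were tested on log2(scaled FPKM + 1) with limma 3.58.1 in R 4.3.3 (trend and robust moderation, two-sided, treatment as the only term), with Benjamini-Hochberg adjustment over all 9937 tested genes. Whole reads were recovered from the FPKM steps for 19709 of 19715 genes with any value, to a tolerance of 1e-06 reads, with library totals fixed on 13 mitochondrial genes of known length. For genes with reads in few libraries this is the smallest number of reads the values allow. Chain ratios were compared by exact permutation tests. The procedures were tested on simulated data.

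The genes, lists and named-gene rule were chosen with earlier results of these data known: all 10 cytokine genes, up to 4 tested genes with the smallest p from each of 9 related lists, up to 3 from each marker list, and the 3 nearest profiles. Alternatives covered pseudocounts, filters, scalings, moderation, limma-voom, a replicate term and leaving out each library. Marker sums without their most abundant gene were added after seeing the data. Some genes of the related lists are counted but not reported here by name.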

Additional observations from a re-analysis of the deposited data

How the results depend on the processing

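The calls of Il10ra, Il22, Il6 and Csf2 kept their direction and passed in all 18 settings, with adjusted p of at most 0.0303. The number of these genes called lower was 1 to 2 when single libraries were left out, the second being Il12a without lenvatinib replicate 3. Leaving out 1 library at a time moved the log2 change to between 0.80 and 1.00 for Il22, 0.83 and 1.19 for Il6, and 0.99 and 1.26 for Csf2. The size for Il6 and Csf2 depended on the pseudocount, since their DMSO levels rest on 2 to 22 reads. Il10 changed sign in 3 settings, with −0.0079 after quantile normalization, −0.0024 without DMSO replicate 1 and −0.087 without lenvatinib replicate 2, and lay between −0.087 and 0.17 when single libraries were left out. Il10rb changed sign in 2, with −0.0089 after scaling by summed FPKM and −0.0069 without lenvatinib replicate 3, and lay between −0.0069 and 0.036 when single libraries were left out. The difference in mean log2 level became −0.26 for mast cell markers and 0.0399 for endothelial markers with a pseudocount of 0.1, and the cause was not tested. Over all genes the calls lay between 719 and 1382 higher and between 545 and 1221 lower.

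Same-numbered libraries did not deviate together, with correlations of −0.007, 0.006 and −0.005 across genes, against −0.005 to 0.01 for pairs with other numbers. Whether they shared a batch or a day of sorting is not given in the sources used here, and these correlations cannot settle it. With the replicate block 894 genes were higher and 648 lower over all genes, and 3 and 1 among the cytokine and receptor genes.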

Other observations

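A receptor gene outside the tested range stood apart in its reads. Il17rc, a chain of the interleukin 17 receptor, had 130 reads over the DMSO libraries and 9 over the lenvatinib libraries, and the libraries of the groups did not overlap. In limma-voom on genes with at least 10 reads its log2 change was −3.82 (SE 1.07, adjusted p = 0.00426). Its relative Il17rb had 17 and 86 reads (voom log2 change 2.66, adjusted p = 0.0568). Among the granulocyte factors near Csf2 in function, Csf3 had 5 and 31 reads (voom adjusted p = 0.187). All 3 genes were singled out after their values were seen.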
